A study of Mus musculus with 6 samples.

Results

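The mir-199 and mir-214 miRNAs are known from mesenchyme and bone, and they were described here over osteoblasts, bone marrow cells and the extracellular vesicles (EVs) of muscle cells. The members were the 4 entries of the authors' table named mir-199a-1, mir-199a-2, mir-199b and mir-214, out of 1006 entries. They were chosen by name, with earlier results of these data known. Each entry is a miRNA precursor, and its value counts the short reads matched to it. A miRNA precursor is a hairpin that is cut to a 5p and a 3p mature strand of about the same length, and the seed near the 5′ end of the mature strand pairs with target mRNAs. The miR-199 and miR-214 miRNAs are conserved in vertebrates, and mir-199a-2 and mir-214 are cut from the same noncoding RNA, Dnm3os, which is needed for normal skeletal development. miR-214 is known to act against bone formation by osteoblasts, with the transcription factor ATF4 among its targets, and miR-199a and miR-214 have roles in muscle and cartilage as well.

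The 4 conditions were sequenced in 6 libraries, each prepared from 90 ng of total RNA. Myo-EVs (2 libraries) were EVs that C2C12 cells, an established mouse myoblast line, released into medium with EV-depleted serum over 48 hr. FFSS-Myo-EVs (2 libraries) were released by C2C12 cells kept under fluid flow shear stress (FFSS) on an orbital shaker for these 48 hr. The load thus acted while the EVs were released into the medium, and they were then collected by ultracentrifugation. Mouse primary osteoblasts (OB, 1 library) and mouse primary bone marrow cells (BM, 1 library) came without stress from mice of a mixed C57BL/6J and 129/SvJ background. The sample labels give an age of 8 to 10 weeks for both cells, whereas the methods describe osteoblasts grown from the calvariae of neonatal mice. The same strains are entered for the EV libraries, although C2C12 is a cell line. All EVs thus come from 1 cell line, and nothing in the sources says whether the replicate libraries come from separate cultures. The p-values thus measure only a spread between these libraries. In edgeR that spread was pooled over the entries tested and was not each entry's own.

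The total count was 5181296 in OB, 6092460 in BM and between 2414132 and 3029524 in the EV libraries, and the authors' normalized expression value is the count multiplied by 1 constant per library. Over these totals, a count of 0 allows a share of up to 0.000124% at the lowest depth. Markers of the labelled cells went only in part with the labels. Of 8 muscle miRNAs, mir-206 was between 1968.5 and 2610 in the EV libraries, 91.7 in OB and 7.9 in BM, and mir-133b was between 12.2 and 45.2 in the EV libraries, 0.6 in OB and at 0 in BM. Others were low in the EVs, with mir-1a-1 and mir-208b at 0 counts in each EV library, mir-1a-2 at most 6 against 31.4 in BM, and mir-499 at most 4 against 11 in OB. The summed value of 8 blood cell miRNAs was 29480 in BM, 864.9 in OB and between 237.9 and 316.9 in the EV libraries. The replicates differed by more than sampling noise, with a chi-square per degree of freedom of 113 for Myo-EVs and 20.5 for FFSS-Myo-EVs over 354 entries.

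The sequences of the members decide which of the 4 values are separate measurements, and they are shown for that reason. All 4 precursors were found in RefSeq (GRCm38.p6), the build that the labels name as mm10. The mature strands were as follows, 5′ to 3′, with the seed (bases 2 to 8) in capitals.
miR-199a-3p and miR-199b-3p: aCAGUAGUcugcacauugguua
miR-199a-5p: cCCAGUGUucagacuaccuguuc
miR-214-3p: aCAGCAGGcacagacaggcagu
miR-214-5p: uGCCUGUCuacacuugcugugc
The 3p strand was letter for letter the same in all 3 mir-199 precursors. Among the RefSeq mature miRNAs no other gene shared the seed of miR-199-3p, of miR-199a-5p or of miR-214-5p. The seed of miR-214-3p was shared with miR-761 (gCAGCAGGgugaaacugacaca), which has no entry in the table under that name.

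The whole precursors show how far the 3 mir-199 copies agree, with the shared 3p strand, or both strands of mir-214, in capitals.
mir-199a-1: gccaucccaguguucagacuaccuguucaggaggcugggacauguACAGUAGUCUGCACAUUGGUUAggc
mir-199a-2: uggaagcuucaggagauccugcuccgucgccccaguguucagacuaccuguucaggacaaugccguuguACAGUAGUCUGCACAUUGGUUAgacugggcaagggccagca
mir-199b: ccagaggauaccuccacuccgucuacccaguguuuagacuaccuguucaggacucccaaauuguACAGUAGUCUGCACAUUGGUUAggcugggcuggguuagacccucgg
mir-214: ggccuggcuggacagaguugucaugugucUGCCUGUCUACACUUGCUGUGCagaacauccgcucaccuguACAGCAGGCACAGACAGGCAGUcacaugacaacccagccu
The longest stretch shared by a pair of mir-199 precursors was 27 or 28 bases, longer than a mature strand. On the 5p side, mir-199a-1 and mir-199a-2 had the same strand, and the closest stretch of mir-199b (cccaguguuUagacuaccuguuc) differed from it by 1 base of 23, C10U, counted from 1 at the 5′ end of miR-199a-5p and given in capitals. Of 1005 RefSeq mouse precursors, mir-214 shared an 18-base stretch with 0 others, and each mir-199 precursor shared one with the other two mir-199 precursors only. A read of the 3p strand therefore cannot be placed in 1 of the 3 mir-199 copies, and a read of the 5p strand cannot be placed in mir-199a-1 or mir-199a-2. How the authors' matching treated such reads is not given in the sources used here, so the mir-199 entries are uncertain as separate miRNAs.

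The precursors lie in 3 dynamin genes, each on the strand opposite to the dynamin. The entry mir-199a-1 lies at chr9:21496495-21496564 (minus strand) in an intron of Dnm2, and mir-199b at chr2:32318460-32318569 (plus strand) in an intron of Dnm1. The entry mir-199a-2 lies at chr1:162217814-162217923 and mir-214 at chr1:162223368-162223477, 5444 bases further on the plus strand. Both lie within an intron of Dnm3 and within an exon of Dnm3os on their own strand (GENCODE M21, GRCm38).

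Osteoblasts held the highest level of each member and bone marrow cells the lowest. The normalized expression value of mir-199a-2 was 88096 in OB (95% interval 87671 to 88523, 159522 counts) and 2037.1 in BM (1982 to 2094, 5129 counts). That of mir-199a-1 was 87356 in OB (86933 to 87781) and 2013.7 in BM (1959 to 2070). The intervals of mir-199a-1 and mir-199a-2 overlapped in both cells, and their counts differed by 0.840% of mir-199a-2 in OB and by 1.15% in BM. The entry mir-199b was lower than both, at 66862 in OB (66490 to 67235) and 1408.4 in BM (1362 to 1456). The entry mir-214 had the lowest level of the 4, at 8032.5 in OB (7903 to 8164, 14545 counts) and 226 in BM (208 to 245, 569 counts). The intervals are Clopper-Pearson (exact) ones for the share of a library's counts, put on the normalized scale. They cover counting error only, since PCR copies were not told apart by molecular identifiers.

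In OB, mir-199a-2 ranked 6 and mir-199a-1 ranked 7 among the 1006 entries, mir-199b ranked 11 and mir-214 ranked 43. In BM the same entries ranked 81, 82, 91 and 142. The 4 entries together took 8.75% of the counts in OB and 0.235% in BM. Where reads shared by the mir-199 precursors were entered under each of them, this sum counts such reads more than once.

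The OB level was 43.4 times that in BM for mir-199a-1 (95% counting interval 42.2 to 44.6), 43.2 times for mir-199a-2 (42.1 to 44.5), 47.5 times for mir-199b (45.9 to 49.1) and 35.5 times for mir-214 (32.7 to 38.7). All 4 were thus past 4-fold. Of the 406 entries with a mean of at least 10 over both cells, 29.3% were 4-fold or more higher in OB. The median ratio was 43.3 over the 4 members and 0.860 over the 406 entries, and the members ranked from 54 to 62 from the top. With 1 library per cell there is no replicate check of these ratios.

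The EV libraries lay between the cells for each member. The normalized expression value of mir-199a-2 was 11362.3 in Myo-EV replicate 1, 11970.8 in Myo-EV replicate 2, 16345.7 in FFSS-Myo-EV replicate 1 and 15494.1 in FFSS-Myo-EV replicate 2. For mir-199a-1, Myo-EVs had 11324.2 and 11904.9, and FFSS-Myo-EVs had 16349.7 and 15372.3. All 4 EV libraries were below OB and above BM in both entries.

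For mir-199b, Myo-EVs had 8308.7 and 9152.6, and FFSS-Myo-EVs had 13493.5 and 12559.2. For mir-214, Myo-EVs had 4522.2 and 7087.9, and FFSS-Myo-EVs had 5729.2 and 6237.5. In each mir-199 entry the groups did not overlap and FFSS-Myo-EVs were higher, as in 36.7% of 354 entries on this scaling. In mir-214 the FFSS-Myo-EV libraries fell between those of Myo-EVs. The order of the members was the same in each EV library as in the cells apart from mir-199a-1 and mir-199a-2, which differed by less than the spread between replicates.

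**Figure D1:**
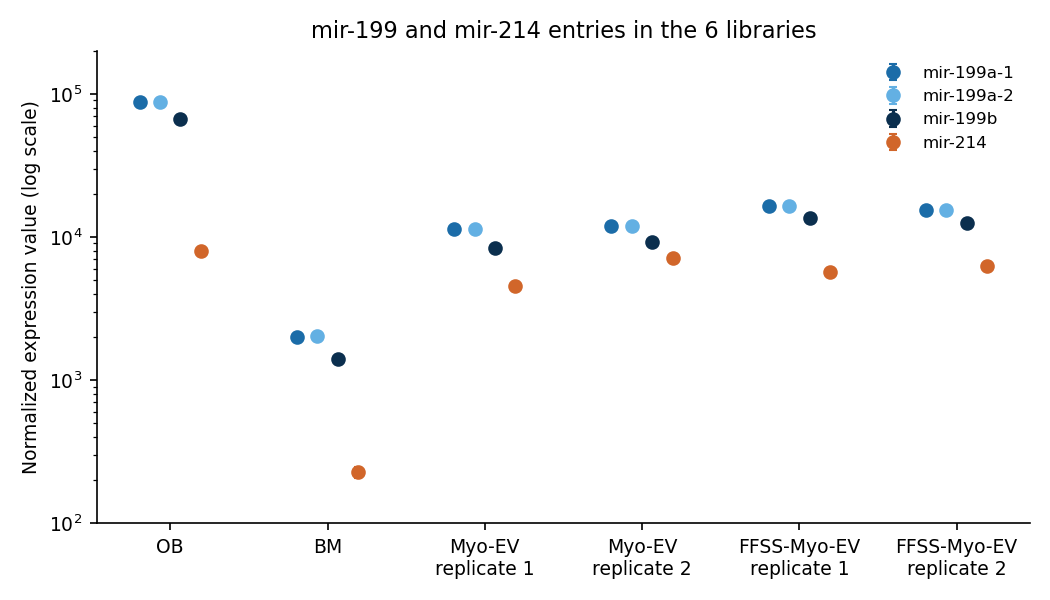
Normalized expression value (vertical axis, log scale) of the 4 entries in each of the 6 libraries (horizontal axis), with exact 95% counting intervals that are mostly smaller than the points. OB is highest and BM lowest for each entry, and mir-214 stands closer to the mir-199 entries in the EV libraries than in either cell.

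The members split in how far the EVs were from osteoblasts. The OB level was 7.52 times the Myo-EV mean for mir-199a-1, 7.55 times for mir-199a-2 and 7.66 times for mir-199b, so that 3 of the 4 were past 4-fold. Of 422 entries, 28.2% were 4-fold or more lower in Myo-EVs than in OB. For mir-214 the OB level was 1.38 times the Myo-EV mean, and 1.13 and 1.78 times the 2 libraries taken alone. Against FFSS-Myo-EVs, the OB level was 5.51, 5.53 and 5.13 times the mean for mir-199a-1, mir-199a-2 and mir-199b and 1.34 times for mir-214. The share of all entries 4-fold or more lower in FFSS-Myo-EVs than in OB was 24.8%.

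Against bone marrow cells the split ran the other way. The Myo-EV mean was 5.77 times the BM level for mir-199a-1, 5.73 times for mir-199a-2 and 6.20 times for mir-199b, against 25.7 times for mir-214. The FFSS-Myo-EV mean was 7.88, 7.81 and 9.25 times BM for the mir-199 entries in the same order and 26.5 times for mir-214. All 4 members were past 4-fold in both comparisons, where 31% (Myo-EVs) and 30.8% (FFSS-Myo-EVs) of 393 entries were 4-fold or more higher than in BM. OB and BM have 1 library each, so no test of these ratios was made.

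The 2 miRNAs of the Dnm3os RNA were thus found in unequal proportion in the EVs of C2C12 cells and in OB and BM. C2C12 cells themselves were not sequenced, so a difference between EVs and cells cannot be told apart from one between cell types. The proportion of mir-214 to mir-199a-2 does not depend on the scaling between libraries. Per 100 counts of mir-199a-2 there were 9.12 counts of mir-214 in OB (95% interval 8.96 to 9.27) and 11.1 in BM (10.2 to 12.1). Myo-EVs had 39.8 and 59.2, and FFSS-Myo-EVs had 35.0 and 40.3. The 4 EV libraries were between 3.84 and 6.49 times OB and between 3.16 and 5.34 times BM. Each EV library was above both cells by more than counting error, and the spread of the proportion between osteoblast or bone marrow cultures was not measured. With all 3 mir-199 entries in the denominator, there were 3.31 counts of mir-214 per 100 in OB, 4.14 in BM, from 14.6 to 21.5 for Myo-EVs and from 12.4 to 14.4 for FFSS-Myo-EVs. Since mir-199a-2 shares mature strands with mir-199a-1 and mir-199b, this proportion cannot be taken to measure the products of 1 RNA alone.

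**Figure D2:**
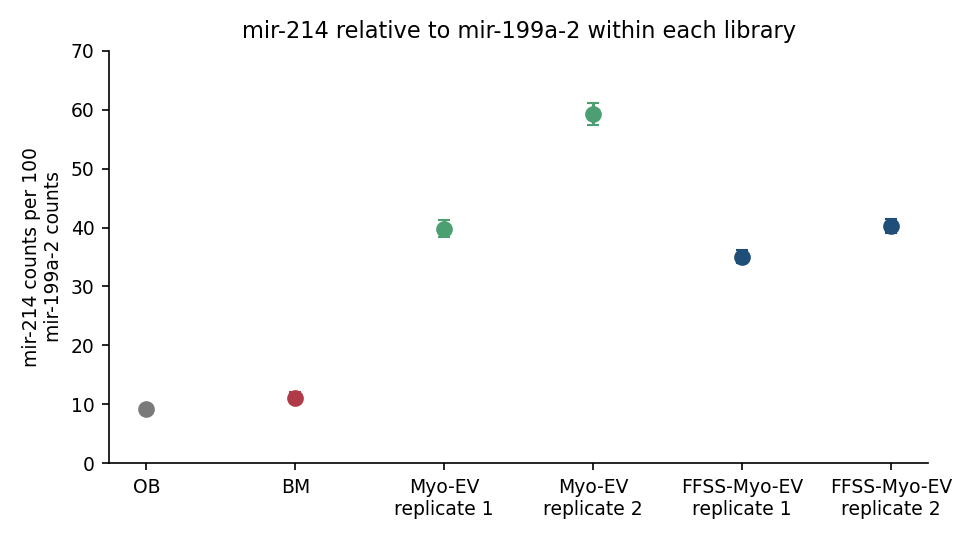
Counts of mir-214 per 100 counts of mir-199a-2 (vertical axis) in each library (horizontal axis), with exact 95% counting intervals. OB and BM lie at 9.12 and 11.1, and the 4 EV libraries lie between 35.0 and 59.2, the highest being Myo-EV replicate 2.

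Between the EV groups, mir-199b was called higher in FFSS-Myo-EVs, and mir-199a-1 and mir-199a-2 did not pass the test. The test was the quasi-likelihood test of edgeR with TMM factors on the 4 EV libraries, run over the 354 entries whose mean normalized value reached 10 and adjusted by Benjamini-Hochberg. The log2 fold change of mir-199b was 0.46 (standard error 0.15, edgeR adjusted p = 0.00845), a fold of 1.37 with a 95% interval of 1.13 to 1.68. Those of mir-199a-1 and mir-199a-2 were both 0.33 (standard error 0.15), with edgeR adjusted p of 0.0853 and 0.0867. Their folds were 1.26 and 1.25, both with a 95% interval of 1.02 to 1.54, which overlaps that of mir-199b. That their changes differ from that of mir-199b was not tested. On TMM-scaled counts the EV groups were separate in all 3 mir-199 entries, with the FFSS-Myo-EV libraries higher. Such a separation upward was seen in 26% of the 354 entries on TMM scaling and in 36.7% on the authors' scaling.

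One member of 4 was called higher, where 12.1% of all entries tested were. Since reads of the shared strands cannot be placed in 1 mir-199 entry, the 3 values cannot be taken as independent. The calls for mir-199a-1 and mir-199a-2 depended on the processing. With 7 of 9 other settings that kept all libraries, both were called higher, with edgeR adjusted p of 0.0127 and 0.0128 when the authors' scaling replaced TMM. That scaling shifted all log2 fold changes up by 0.12 relative to TMM and turned the split of all calls from 43 higher and 65 lower to 54 higher and 39 lower. The call for mir-199b held under each of these 9 settings and was lost without either FFSS-Myo-EV library, with edgeR adjusted p of 0.388 without replicate 1 and 0.120 without replicate 2. Summed to 1 entry, the 3 mir-199 entries did not pass (log2 fold change 0.38, edgeR adjusted p = 0.0536). This sum includes mir-199a-1 and mir-199a-2, so it does not retest mir-199b alone.

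For mir-214 no change was detected with both replicates. Its log2 fold change was -0.07 (standard error 0.14, edgeR adjusted p = 0.768), with a 95% interval from 0.793-fold to 1.15-fold. This rested on the difference between the Myo-EV libraries, whose coefficient of variation was 31.3% for mir-214 against 3.54% to 6.83% for the mir-199 entries. The standard error and the interval use the spread pooled over entries, so they do not measure this difference. Without Myo-EV replicate 1 the log2 fold change of mir-214 was -0.38 (edgeR adjusted p = 0.0127), and without Myo-EV replicate 2 it was 0.30 (edgeR adjusted p = 0.0290), so that the direction was set by 1 library. In the FFSS-Myo-EVs its coefficient of variation was 6.01%.

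**Figure D3:**
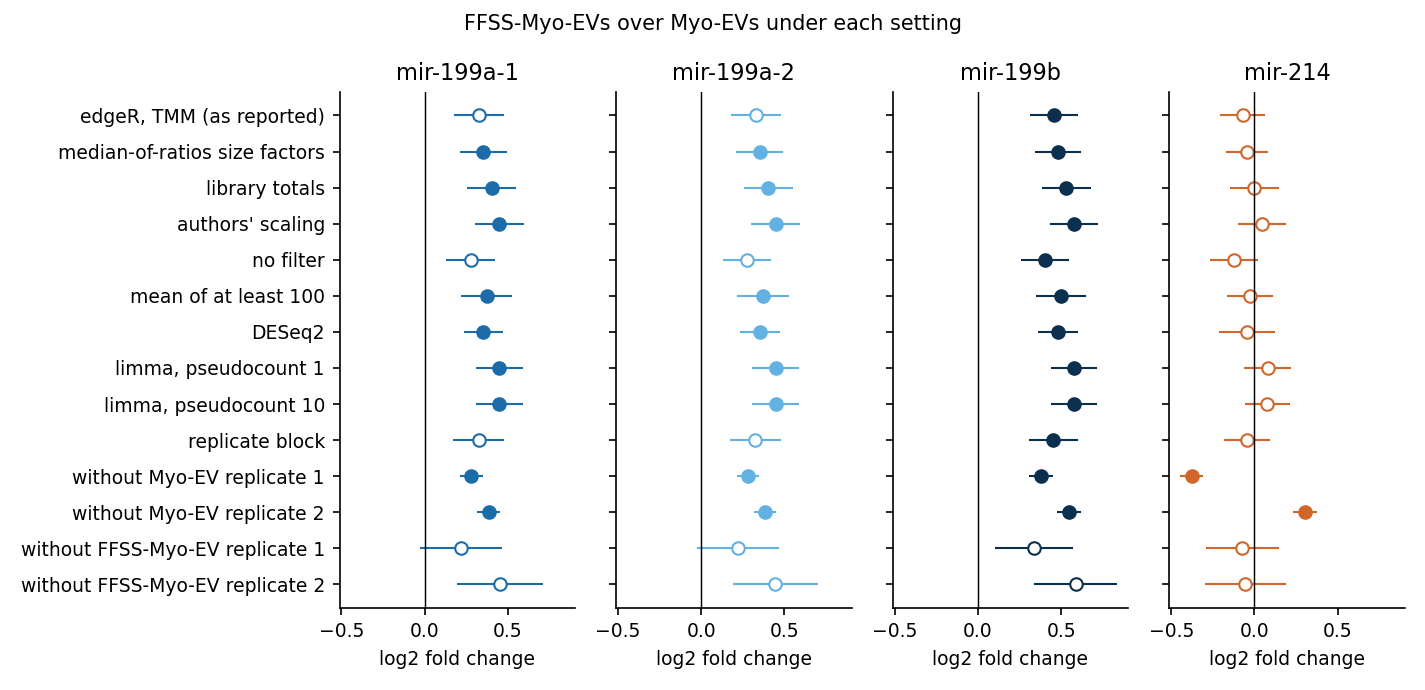
Log2 fold change of FFSS-Myo-EVs over Myo-EVs (horizontal axis) of each entry under each setting (vertical axis), with bars of 1 standard error and filled points for an adjusted p below 0.05. The mir-199 entries stay above 0 throughout and mir-199b has 12 filled points of 14, whereas mir-214 lies on opposite sides of 0 without 1 or the other Myo-EV library.

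The proportion of mir-199b to mir-199a-2 differed between the libraries. The counts of mir-199b were 73.1% and 76.5% of those of mir-199a-2 in Myo-EV replicates 1 and 2, and 82.6% and 81.1% in FFSS-Myo-EV replicates 1 and 2. They were 75.9% in OB and 69.1% in BM. The FFSS-Myo-EV libraries were the highest of the 6, and the share of mir-199b in the sum of the 3 mir-199 entries was 27.3% ± 0.640 (SD, n = 2) in Myo-EVs and 29.1% ± 0.207 (SD, n = 2) in FFSS-Myo-EVs. A two-sided exact permutation test of 2 against 2 libraries gave p = 0.333 for this share, the smallest p that the design allows.

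The difference between mir-199a-2 and mir-199b, formed after the values were seen, was nearly the same in all EV libraries on the authors' scaling. Unlike a proportion within a library, this difference depends on the scaling. On the normalized scale, Myo-EVs had 3053.6 and 2818.2, FFSS-Myo-EVs had 2852.2 and 2934.9, and the groups overlapped. In the same libraries the mean of mir-199b was 8731 ± 597 (SD, n = 2) in Myo-EVs and 13026 ± 661 (SD, n = 2) in FFSS-Myo-EVs. On the authors' scaling, the FFSS-Myo-EV mean was 1.49 times the Myo-EV mean for mir-199b and 0.986 times for the difference. In OB the difference was 21234 and in BM 628.7. By sequence, the precursors share the whole 3p strand, and apart from the hairpin arms and loops they differ in the 5p strand. The table does not list the 5p and 3p reads apart, so which strand the difference holds was not tested.

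**Figure D4:**
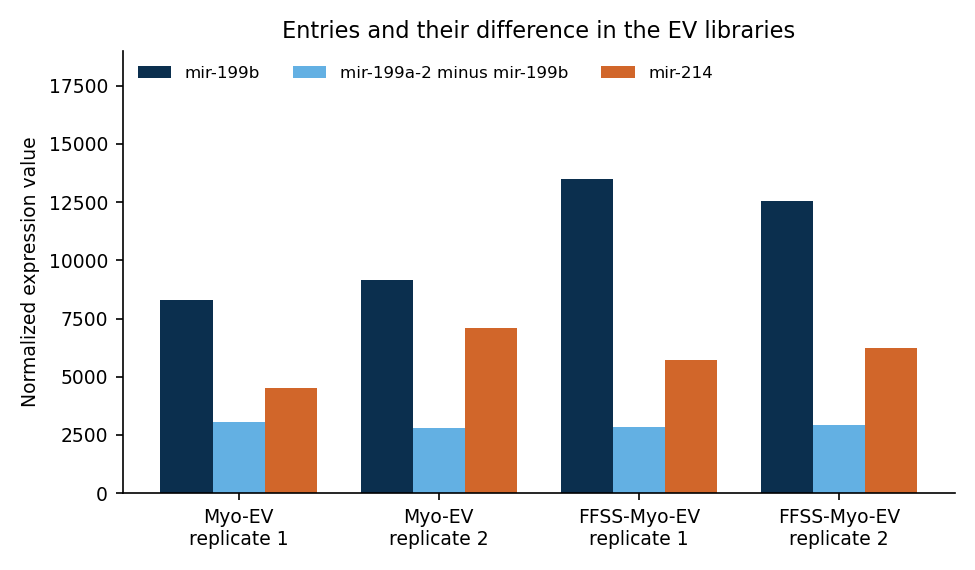
Normalized expression value (vertical axis) of mir-199b, of mir-214 and of the difference between mir-199a-2 and mir-199b in the 4 EV libraries (horizontal axis). The bars of mir-199b are taller in both FFSS-Myo-EV libraries, the difference stays between 2818 and 3054, and mir-214 varies most between the Myo-EV libraries.

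Other miRNAs moved between the EV groups as well. The serum and liver miRNA mir-122 had 6 and 4 counts in Myo-EVs against 18 and 14 in FFSS-Myo-EVs, and the red cell miRNA mir-451a had 3 and 4 against 26 and 16. Both were called higher (edgeR adjusted p = 0.0132 and 6.79e-05), and neither with DESeq2. Of the 8 blood cell miRNAs, 4 were tested and 1, mir-451a, was called higher, where 12.1% of all entries were. The others tested, mir-342, mir-486a and mir-486b, had log2 fold changes of -0.20, -0.04 and 0.04 (edgeR adjusted p = 0.707, 0.942 and 0.868). Of the 8 muscle miRNAs, 4 were tested, 0 were called higher by edgeR, limma or DESeq2, or had an unadjusted p below 0.05 in that direction, and 3 were called lower by edgeR, where 18.4% of all 354 entries were, namely mir-133a-1, mir-133a-2 and mir-133b (mir-133b alone by DESeq2). Counts of mir-133a-1 were low, at 19 and 16 in Myo-EVs against 10 and 4 in FFSS-Myo-EVs. Those of mir-133a-2 were 17 and 17 against 6 and 4, and those of mir-133b 45 and 30 against 14 and 11. The mir-133a entries are numbered copies, so their calls may not be separate. In comparison, mir-206 had a log2 fold change of 0.15 (edgeR adjusted p = 0.420). The part of these differences in the rise of mir-199b was not tested.

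Most other mesenchymal miRNAs were higher in osteoblasts than in bone marrow, and how many were called higher in FFSS-Myo-EVs depended on the scaling. Of a list of 12, 11 had a mean of at least 10 over OB and BM, and of these 8 were 4-fold or more higher in OB, where 29.3% of all 406 entries were. One, mir-10a, was 4-fold or more lower, where 16% of all entries were. Their median ratio of OB to BM was 12.9. In the EVs 11 were tested, of which 0 were called higher by edgeR with TMM, where 12.1% of all entries were, and 2 had an unadjusted p below 0.05 in that direction. With the authors' scaling edgeR called 2 higher, mir-100 and mir-99a, where 15.3% of all entries were. DESeq2 called 1 higher, mir-100, where 10.2% of all entries were, and limma called mir-100 and mir-99a, where 16.1% were. The entries mir-10a and mir-140 were called lower by edgeR with TMM, 2 of 11 where 18.4% of all entries were, and mir-140 alone with the authors' scaling. The median log2 fold change was -0.19, against -0.02 over all 354 entries. The smooth muscle and fibroblast miRNAs mir-143 and mir-145a had ratios of OB to BM of 17.3 and 18.6 and log2 fold changes in the EVs of -0.13 and -0.24 (edgeR adjusted p = 0.768 and 0.290). The Hox cluster miRNA mir-10b had a ratio of 7.84, and the cartilage miRNA mir-140 a ratio of 2.47 and a log2 fold change in the EVs of -0.58 (edgeR adjusted p = 0.0100). That the members and the list differ in the EVs was not tested.

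The entries whose pattern was most like the members were ranked over the 6 libraries, taking the 253 entries whose mean over the 4 conditions reached 100. The measure was the root mean square difference of log2(value + 1) after each entry was centred on its own mean. The libraries share their depth and scaling, and the ranking is a description. The entries nearest to the sum of the 3 mir-199 entries were mir-100 (0.428), mir-152 (0.513), mir-3102 (0.669), mir-365-1 (0.695) and mir-125b-1 (0.777). Among them, mir-100 was 56851.9 in OB, 1597.9 in BM and between 4625.6 and 6465.3 in the EVs. Of these 5, mir-365-1 was called higher in FFSS-Myo-EVs by edgeR with TMM, with a log2 fold change of 0.69 (edgeR adjusted p = 0.000131), 1 of 5 where 12.1% of all entries were. The other mir-365 entry, mir-365-2, is not among these 5 and was called lower by the same test (log2 fold change -0.48, edgeR adjusted p = 0.00143). The entry mir-100 did not pass there (log2 fold change 0.28, edgeR adjusted p = 0.109), and it was called higher beside mir-365-1 by edgeR with the authors' scaling, by DESeq2 and by limma.

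The entries nearest to mir-214 were mir-143 (0.322), mir-193b (0.406), mir-34b (0.432), mir-145a (0.432) and mir-99b (0.550). Of these 5, 0 were called in the EVs by edgeR, limma or DESeq2, and 0 had an unadjusted p below 0.05 in edgeR. The value of mir-143 was 269506 in OB, 15620.4 in BM, from 274482 to 372549 in Myo-EVs, and from 312517 to 326655 in FFSS-Myo-EVs. As with mir-214, the highest EV value of mir-143 was that of Myo-EV replicate 2. On the same measure, mir-214 lay 1.06 from the sum of the mir-199 entries, whereas mir-199a-1 lay 0.00565 from mir-199a-2 and 0.0846 from mir-199b.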

How the data were processed

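Small RNA of 6 libraries was measured. The authors matched paired-end reads, grouped by sequence, to miRBase with the CLC Genomics Workbench and deposited a table of counts for 1006 precursor entries. They also deposited normalized expression values, a signal made by scaling the counts with means and a trimming percentage of 5. Within each library this is 1 constant per count. The labels name mm10 as a build, and neither the miRBase release nor the rules for mismatches and for reads with several matches are given in the sources used here. Sequences were taken from RefSeq tables (GRCm38.p6) and host genes from GENCODE M21.

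Groups were taken from the sample titles. edgeR 4.0.16 in R 4.3.3 was fitted to the counts of the 4 EV libraries, with TMM factors and total counts as library sizes. There were 2 residual degrees of freedom. The prior degrees of freedom were infinite, so that each entry took the spread pooled over entries. Standard errors came from the F statistic, and the 95% intervals are normal ones. The edgeR fit was tested on simulated counts of 354 entries, in which 180 of 200 entries changed 2-fold were called in the right direction. In the same counts 3 unchanged entries were called. All entries were simulated with 1 common dispersion taken from the fit. The simulation therefore does not cover spread that differs between entries or groups, or changes below 2-fold. OB and BM have 1 library each and were compared by ratios with a threshold of 4-fold, where an entry below 3 counts was set to 3 counts, and exact intervals (Python 3.11.15, scipy 1.17.1). Alternatives were other scalings, filters and pseudocounts (1 and 10), DESeq2 1.42.0, limma 3.58.1, the replicate block, the mir-199 entries summed, and each EV library left out. The genes named are the 4 members, the 5 entries most like the mir-199 sum and the 5 most like mir-214, the marker lists, and entries that share a seed. The neighbour mir-3120 was also on this list and has no entry under that name. The 5 marker lists (blood cells, muscle, epithelium, serum and liver, bone and cartilage) and the mesenchymal list were used. The members and lists were chosen with earlier results of these data known. The summed value of 5 epithelial miRNAs was 540 in BM and at most 23.7 in the other libraries.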

Additional observations from a re-analysis of the deposited data

How the results depend on the processing

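The number of members past 4-fold was the same with library totals, median-of-ratios and TMM scaling of the 6 libraries and without either EV replicate, and these scalings multiplied the ratios of OB to BM by 0.846 to 1.16. In edgeR the log2 fold changes of mir-199a-1 and mir-199a-2 were 0.353 and 0.352 with median-of-ratios factors, 0.404 and 0.403 with library totals, 0.450 and 0.448 with the authors' scaling, and 0.372 and 0.371 with a mean of at least 100. They were 0.353 and 0.352 with DESeq2, and 0.449 and 0.448 with limma and a pseudocount of 1 or 10. Both passed an adjusted p of 0.05 under each of these. Neither passed with no filter or with the replicate block, and their adjusted p over all alternatives ran from 0.00840 to 0.650. The sum of the mir-199 entries had a log2 fold change of 0.384 (edgeR adjusted p = 0.0536) and was thus not called. Leaving out each library in turn gave 0.216 to 0.453 for mir-199a-1, 0.221 to 0.446 for mir-199a-2, 0.338 to 0.588 for mir-199b and -0.378 to 0.301 for mir-214. In these fits a group of 1 library is assumed to vary like the other. The log2 fold change of mir-214 turned positive, without passing, with the authors' scaling (0.0441) and with limma (0.0784 and 0.0783 with pseudocounts of 1 and 10). Both use the authors' scaling, whose shift of 0.12 relative to TMM is larger than the change of -0.07 that TMM gave for mir-214.

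The number of entries called was 108, and it ran from 37 to 120 with each library left out. It fell to 40 without FFSS-Myo-EV replicate 1 and to 37 without replicate 2. With the replicate number as a block, 110 entries were called, the log2 fold changes were 0.326, 0.325, 0.454 and -0.0458 for mir-199a-1, mir-199a-2, mir-199b and mir-214, and no call of a member changed. The difference between replicates 1 and 2 was correlated between the EV groups (r = 0.209 over 354 entries, which are not independent replicates), but no source says that the numbers pair the libraries. Without either replicate, mir-214 per 100 counts of the mir-199 entries was 14.6 to 21.5 in Myo-EVs and 12.4 to 14.4 in FFSS-Myo-EVs, and the share of mir-199b was 26.8% to 27.7% and 28.9% to 29.2%. The named entries most like the members were the same 5 and 5 with a pseudocount of 10 and with library totals. The cells have no replicate library, and depth does not limit the members, which had at least 569 counts.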
